A study of Mus musculus with 15 samples.

Results

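Respiratory complex I is the NADH dehydrogenase of the mitochondrial electron transport chain, and most of its subunits are encoded in the nucleus under the Nduf symbols. Its nuclear subunits were taken as all genes whose symbol is Nduf, then a, b, c, s or v, then a number, which gave 37 of the 56832 genes in the count table. Assembly factors, whose symbols begin with Ndufaf, are left out by this rule, as is *Ndufab1*. The rule reads symbols alone, although the set was proposed with earlier results of these data known, and all 37 genes passed the filter on low counts that left 18263 genes to be tested. RNA-sequencing was carried out on mesenchymal stromal cells (MSCs) grown from the femur and tibia marrow of 16 week old mice of C57BL/6J background, either TauT+/+ or TauT-/-. TauT is the taurine transporter encoded by *Slc6a6*, and the knockout is carried by every cell of the animal. Marrow cells were cultured on collagen at 2% oxygen and MSCs were then enriched by magnetic depletion of cells with CD45, Ter119 or CD31 or by flow sorting. The labels give 4 male TauT+/+, 4 male TauT-/-, 3 female TauT+/+ and 4 female TauT-/- libraries, and they name no other treatment.

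Complex I oxidises NADH in a peripheral arm that reaches into the mitochondrial matrix, passes the electrons along a chain of iron-sulphur clusters to ubiquinone, and pumps protons through a membrane arm. Core subunits carry out this chemistry, some encoded in the nucleus and the others, the proton-pumping membrane subunits, in mitochondrial DNA. Accessory subunits surround the core and are needed for its assembly and stability, and electrons that leave the complex early form superoxide, which links complex I to oxidative stress. Whether the transcripts of this complex differ between TauT+/+ and TauT-/- MSCs, gene by gene, was the question here.

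Libraries with the male label held 69764291 to 101575071 counts and those with the female label 12761107 to 20781070, so depth and labelled sex cannot be told apart. Each genotype had libraries of both depths. *Slc6a6* itself had 585.9 to 2655 CPM (CPM are counts divided by the TMM-scaled library size; median 1670) in TauT+/+ and 392.2 to 1571 CPM (median 758) in TauT-/- MSCs, and its log2 fold change was -0.94 (SE 0.37, edgeR adjusted p = 0.141). The counts span the whole gene and do not show which exons the deletion takes, so the genotype labels could not be checked on them. *Xist*, expressed from the inactive X chromosome, and the Y-linked *Ddx3y* did not match the sex label of 3 libraries, TauT+/+ male 1, TauT-/- male 1 and TauT+/+ female 3. Replicate 1 of the male and of the female label were nearly identical in each genotype: their gene by gene log2 ratios spread by 0.109 in TauT-/- and 0.121 in TauT+/+ MSCs, where counting error alone gives 0.0643 and 0.0672 and the next closest pair of libraries had 0.300. Whether the libraries of a pair share cells is not given in the sources used here. Results are given with all 15 libraries. The subunits' counts, medians and intervals and the estimates of *Ndufs6* and *Sdhd* are also given with 13, keeping 1 library of each pair. Unless a subset is named, the other values, with every DESeq2 call, count the libraries of a pair as separate. Of the stromal marker list, *Lepr*, a defining gene of marrow MSCs, was at 0 to 2.37 CPM. The sums of the list were 28169 to 47035 CPM in TauT+/+ and 6377 to 40730 CPM in TauT-/- libraries. They drew mostly on *Cxcl12*, *Col1a1* and *Col1a2*, and other genes of the list were far lower. *Nt5e* was at 0.65 to 67.9 CPM and *Thy1* at 4.2 to 415.8 CPM over all libraries. The pan-leukocyte gene *Ptprc*, which encodes CD45, was at 28.64 to 378.9 CPM although the enrichment was meant to leave such cells out. p-values measure the spread between these libraries, and in bulk RNA a smaller share of a cell type cannot be told apart from less RNA per cell.

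No nuclear complex I subunit passed the test between genotypes, and the 95% intervals of 36 of 37 lay within a 1.5-fold change. Of 37 subunits, 0 were lower and 0 were higher in TauT-/- MSCs at an adjusted p under 0.05 by the quasi-likelihood test of edgeR, fitted with terms for genotype and the sex label, where 0.591% of all tested genes were lower and 0.564% were higher. Without adjustment, 0 subunits were lower and 2 were higher at p under 0.05, against 11.8% of all genes in each direction. DESeq2, which called 6.5% of genes lower and 5.53% higher, called 0 subunits lower and 1 higher, *Ndufs6*. No subunit had genotypes that did not overlap, against 1.12% of all tested genes.

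The intervals bound the size of a change in either direction under the fit used. The log2 fold changes ran from -0.27 for *Ndufa4* to 0.26 for *Ndufs6*, with a median of 0.068. The median was 0.0049 over all tested genes and 0.044 over the 9880 tested genes within the subunits' range of mean CPM. The 95% intervals of all 37 subunits excluded a 2-fold change in either direction. The 1 interval that went past a 1.5-fold change was that of *Ndufa4*, and over all subunits the bounds reached from 0.58-fold to 1.44-fold of the TauT+/+ level. These genes varied little between libraries, with a median biological coefficient of variation of 0.197, against 0.255 over the 9880 tested genes of the same range of mean CPM. Each had at least 41 counts in every library. These intervals count the near-identical libraries as separate. With 13 libraries, a choice made after seeing the data, all 37 again excluded a 2-fold change and 36 lay within 1.5-fold, but only just: the highest bound was 1.498-fold for *Ndufb1* with the female-labelled and 1.499-fold for *Ndufa1* with the male-labelled library of each pair kept.

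Direction was uneven but not firm. Of the 37 estimates, 28 were above and 9 below 0. Of the 9880 tested genes within the same range of mean CPM, 5498 were above and 4382 below 0. Upper-quartile scaling in place of edgeR's TMM moved the number of subunits below 0 to 15. With 13 libraries the number below 0 was 8 when the female-labelled and 6 when the male-labelled library of each pair was kept, with medians of 0.086 and 0.11 and 0 subunits called in each. Over all tested genes, these fits called 0 lower and 2 or 7 higher. Without the 3 libraries of mismatched sex label, 8 subunits were below 0 and 0 were called, but 0 of all 17417 tested genes were called either. With so few calls over all genes, 0 subunits called says little in these fits. Leaving out the library labelled TauT+/+ male 3 or TauT+/+ male 4 put 18 below 0, with medians of 0.0056 and 0.0015.

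**Figure D1:**
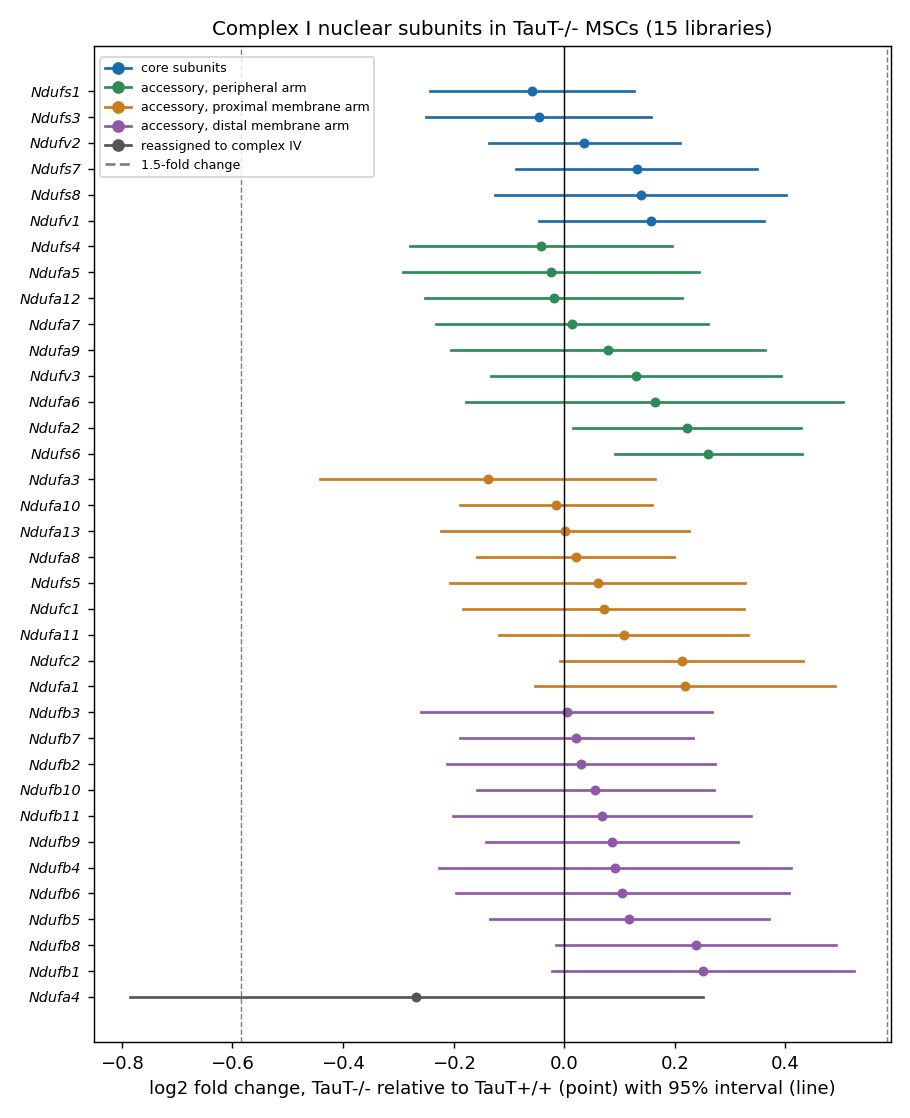
Log2 fold change of 36 nuclear complex I subunits in TauT-/- relative to TauT+/+ MSCs (points) with its 95% interval (lines), over 15 libraries and coloured by place in the complex. All intervals but that of Ndufa4 lie between the dashed lines of a 1.5-fold change, and 34 of 36 include 0.

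The 7 nuclear core subunits, which bind the flavin and the iron-sulphur clusters, gave 3 estimates below and 4 above 0 with a median log2 fold change of 0.036, and none passed the test. *Ndufv1* binds the flavin that takes the electrons from NADH. It had 47.3 to 58.3 CPM (median 52.8) in TauT+/+ and 49.2 to 73.9 CPM (median 58.3) in TauT-/- libraries, and its log2 fold change was 0.16 (SE 0.095, edgeR adjusted p = 0.330). The genotypes overlapped, with 4 of 8 TauT-/- values above every TauT+/+ value, and the 2 highest, 73.9 and 67.8 CPM, came from the near-identical pair. *Ndufv2*, its partner in NADH oxidation, spanned 45.7 to 61.3 CPM (median 54.7) in TauT+/+ and 50.6 to 58.9 CPM (median 55.9) in TauT-/- libraries, so that all TauT-/- values fell inside the TauT+/+ range. The log2 fold change of *Ndufv2* was 0.036 (SE 0.081, edgeR adjusted p = 0.820).

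*Ndufs1*, the largest core subunit, carries iron-sulphur clusters of the peripheral arm. Its values were 63.3 to 77.2 CPM (median 67.3) in TauT+/+ and 47.4 to 72.5 CPM (median 66.4) in TauT-/- libraries, with the library labelled TauT-/- female 4 below all others. *Ndufs3*, a core subunit of the same arm, ran from 29.8 to 47.0 CPM (median 39.1) in TauT+/+ and from 33.9 to 40.8 CPM (median 36.8) in TauT-/- libraries, which all fell inside the TauT+/+ range. The log2 fold changes of *Ndufs1* and *Ndufs3* were -0.058 and -0.046 (SE 0.087 and 0.095; edgeR adjusted p = 0.719 and 0.806). *Ndufs3* has a near-identical copy over 62.5% of its transcript on chromosome 11, so its reads could be split.

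*Ndufs7*, which holds the last iron-sulphur cluster before ubiquinone, had 27.5 to 38.0 CPM (median 33.5) in TauT+/+ and 29.9 to 44.1 CPM (median 34.5) in TauT-/- libraries. *Ndufs8*, which carries clusters of the same chain, had 30.2 to 39.6 CPM (median 31.3) and 20.5 to 42.8 CPM (median 37.2). The lowest of these values was again the library labelled TauT-/- female 4, while the other 7 TauT-/- libraries were at 36.5 CPM or more. The log2 fold changes of *Ndufs7* and *Ndufs8* were 0.13 (SE 0.10, edgeR adjusted p = 0.452) and 0.14 (SE 0.12, edgeR adjusted p = 0.518).

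The 9 accessory subunits of the peripheral arm gave 3 estimates below and 6 above 0, with a median of 0.079. *Ndufs6*, a zinc-binding subunit needed for a late step of assembly, had the highest estimate of all 37 subunits. It had 19.1 to 27.7 CPM (median 22.4) in TauT+/+ and 24.8 to 30.9 CPM (median 26.4) in TauT-/- libraries. All 8 TauT-/- values lay above 6 of the 7 TauT+/+ values, and the library labelled TauT+/+ male 2 lay among them. The log2 fold change of *Ndufs6* was 0.26 (SE 0.079, 95% interval 0.092 to 0.43), 1.2-fold, and it missed the threshold with edgeR (unadjusted p = 0.00493, adjusted p = 0.0835). DESeq2 gave an adjusted p of 0.00452 and voom with sample quality weights 0.0442 for *Ndufs6*, and over all alternatives its adjusted p ran from 0.00452 to 0.631. With 13 libraries the estimate for *Ndufs6* was 0.27 or 0.29 (edgeR adjusted p = 0.115 and 0.130).

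*Ndufa2*, a small subunit with a thioredoxin-like fold, had 42.5 to 59.2 CPM (median 48.5) in TauT+/+ and 54.9 to 68.6 CPM (median 57.7) in TauT-/- libraries, with the upper TauT+/+ values inside the TauT-/- range. The log2 fold change of *Ndufa2* was 0.22 (SE 0.097, edgeR unadjusted p = 0.0366, adjusted p = 0.183). *Ndufa7* was level, at 58.3 to 83.9 CPM (median 66.6) and 60.4 to 85.2 CPM (median 68.5), and the sign of its estimate of 0.015 (SE 0.12, edgeR adjusted p = 0.955) depended on the library left out. The other members of this arm, *Ndufa5*, *Ndufa6*, *Ndufa9*, *Ndufa12*, *Ndufs4* and *Ndufv3*, had log2 fold changes from -0.041 to 0.16.

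In the proximal part of the membrane arm, 2 of 9 estimates were below and 7 above 0, with a median of 0.061. *Ndufa1*, a short X-linked subunit that spans the membrane, had 21.9 to 37.5 CPM (median 29.7) in TauT+/+ and 28.1 to 39.01 CPM (median 32.1) in TauT-/- libraries, and its log2 fold change was 0.22 (SE 0.13, edgeR adjusted p = 0.315). *Ndufa3* gave the lowest estimate of this arm, -0.14 (SE 0.14, edgeR adjusted p = 0.580), from 29.8 to 59.5 CPM (median 44.0) in TauT+/+ and 29.6 to 50.7 CPM (median 38.9) in TauT-/- libraries. The lowest value of each genotype for *Ndufa3* was nearly the same. *Ndufa8*, *Ndufa10*, *Ndufa11*, *Ndufa13*, *Ndufc1*, *Ndufc2* and *Ndufs5* lay between -0.015 and 0.21. *Ndufs5* has a near-identical copy over 91% of its transcript on chromosome 16 and its level is uncertain.

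All 11 subunits of the distal membrane arm had estimates above 0, with a median of 0.087, but upper-quartile scaling put 3 of the 11 below 0 and leaving out the library labelled TauT+/+ male 3 put 5 below. *Ndufb1* was at 27.7 to 41.6 CPM (median 34.7) in TauT+/+ and at 29.7 to 47.8 CPM (median 41.7) in TauT-/- libraries, with a log2 fold change of 0.25 (SE 0.13, edgeR adjusted p = 0.246). The near-identical TauT-/- pair was low for this gene, at 32.7 and 29.7 CPM, while the other 6 TauT-/- libraries had 39 CPM or more. *Ndufb8*, whose protein is often probed in blots as a gauge of assembled complex I, had 32.2 to 48.3 CPM (median 37.6) in TauT+/+ and 36.1 to 58.8 CPM (median 44.9) in TauT-/- MSCs. Its 2 highest values, 58.8 and 56.7 CPM, came from the pair that was low for *Ndufb1*, while *Ndufb1* and *Ndufb8* both had their highest and lowest TauT+/+ values in male 2 and female 2. For *Ndufb8* the log2 fold change was 0.24 (SE 0.12, edgeR adjusted p = 0.237).

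*Ndufa4* carries a complex I name, but its protein is now placed in complex IV, cytochrome c oxidase. It was the most variable of the 37 genes, with 28.3 to 84.7 CPM (median 64.2) in TauT+/+ and 30.7 to 73.4 CPM (median 56.8) in TauT-/- libraries. Low values near 30 CPM occurred in both genotypes. Its log2 fold change was -0.27 (SE 0.24, 95% interval -0.79 to 0.25, edgeR adjusted p = 0.529), and its biological coefficient of variation was 0.342. Without *Ndufa4*, the median over the other 36 subunits was 0.070.

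**Figure D2:**
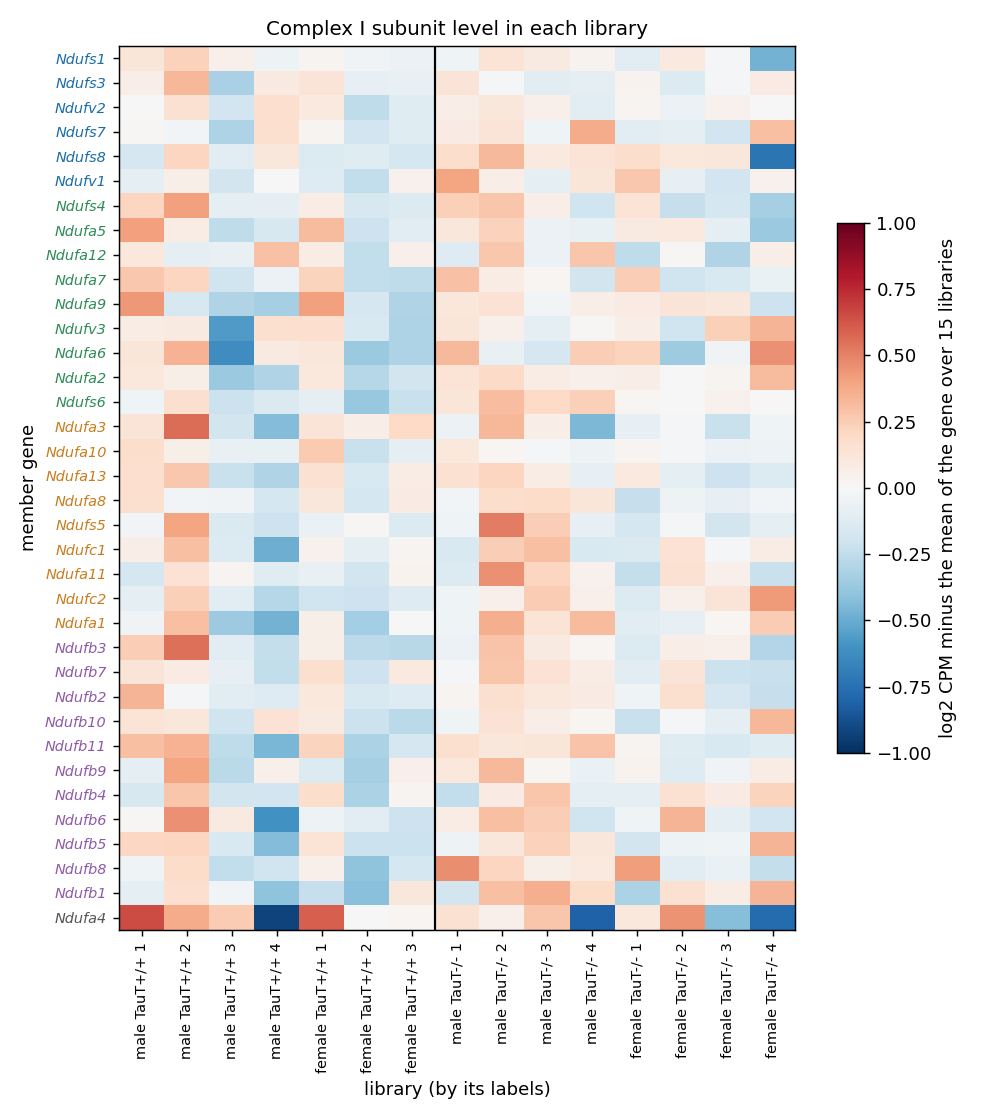
Level of 36 nuclear complex I subunits in each of the 15 libraries, as log2 CPM minus the mean of that gene, with TauT+/+ libraries left and TauT-/- libraries right of the line and gene names coloured by place in the complex. Library columns differ more than genotypes do: of all 37 subunits, 32 lay above their mean in the library labelled TauT+/+ male 2 but only 3 in TauT+/+ female 2 and 4 in TauT+/+ male 3.

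Libraries of the same genotype differed more than the genotypes did. The summed level of the 37 genes was 1382 to 1844 CPM in TauT+/+ libraries (mean 1581 ± 193, SD, n = 7). In TauT-/- libraries it was 1534 to 1770 CPM (mean 1634 ± 83.3, SD, n = 8). TauT+/+ libraries included both the highest and the lowest sum, and the TauT-/- sums fell between them. In the libraries labelled TauT+/+ male 2 and TauT-/- male 2, 32 and 34 of 37 subunits lay above their own mean, while 3 did so in TauT+/+ female 2 and 4 in TauT+/+ male 3.

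Subunits tended to be high or low in the same libraries within a genotype. After the mean of each of the 4 groups was subtracted, the correlation of log2 CPM was above 0 for 556 of 666 pairs of subunits, with a median of 0.37 and a range of -0.54 to 0.93. *Ndufa13* followed the mean of the other subunits most closely at 0.90, next to *Ndufs6* at 0.87, *Ndufb3* at 0.85 and *Ndufb11* at 0.84. *Ndufa12*, *Ndufs8*, *Ndufs7* and *Ndufv1* hardly followed it, at 0.0089, 0.10, 0.11 and 0.14. These points share 15 libraries, their depth and their scaling, and the near-identical pairs are counted as separate points. Pairs of other genes were not examined, so the values are not shown to be particular to the complex.

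Among 9492 genes outside the complex with at least 10 CPM, the closest to the members' mean were *Sdhc*, a membrane anchor of complex II, at a correlation of 0.95, *Romo1*, a small protein of the inner mitochondrial membrane, at 0.94, *Smim11* at 0.93, *BC028528* at 0.92 and *Dpm3*, a subunit of an endoplasmic reticulum mannosyltransferase, at 0.91. They were chosen as the highest of many and the values describe these 15 libraries.

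No subunit passed the test within a sex label. With 1 term per group, edgeR called 0 of 37 subunits in male-labelled MSCs, 0 in female-labelled MSCs and 0 for the difference between them, and it also called 0 genes of all 18263 in each. Without adjustment, 1 subunit, *Ndufs6*, had p under 0.05 in male-labelled MSCs, none did in female-labelled MSCs and none for the difference, where 8.7%, 14.8% and 1.62% of all genes did. The median log2 fold change was 0.079 in male-labelled and 0.041 in female-labelled MSCs. *Ndufs6* had estimates of 0.28 (SE 0.11) and 0.24 (SE 0.12) under the male and the female label, which differed by -0.033 (SE 0.17, edgeR adjusted p = 1.00).

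The mitochondrially encoded subunits, mt-Nd1 to mt-Nd6 and mt-Nd4l, form the proton-pumping core of the membrane arm. Of the 7 genes, 5 were tested, and all 5 had estimates below 0, from -0.86 to -0.20 with a median of -0.60. However, 0 passed the edgeR test, with 2 lower at an unadjusted p under 0.05, where 11.8% of all genes were lower. *mt-Nd4*, a proton-pumping subunit, had 816.9 to 2579 CPM (median 1066) in TauT+/+ and 366.3 to 1066 CPM (median 767.9) in TauT-/- libraries. Its log2 fold change was -0.86 (SE 0.28, edgeR adjusted p = 0.0995), and DESeq2 called it lower (adjusted p = 0.0324). *mt-Nd5*, another pumping subunit, had 1149 to 3256 CPM (median 1790) and 787 to 1924 CPM (median 1556). *mt-Nd1*, which helps to form the ubiquinone site, had 1048 to 3732 CPM (median 1683) and 1104 to 3150 CPM (median 1606), so its ranges were nearly equal.

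The log2 fold changes of the other genes of this group were -0.62 (SE 0.29, edgeR adjusted p = 0.216) for *mt-Nd2*, -0.51 (SE 0.24, edgeR adjusted p = 0.209) for *mt-Nd5*, -0.60 (SE 0.30, edgeR adjusted p = 0.239) for *mt-Nd6* and -0.20 (SE 0.32, edgeR adjusted p = 0.747) for *mt-Nd1*. *mt-Nd6*, whose estimate sets the median of the group, was at 6.95 to 32.6 CPM, far below the other tested mt-Nd genes. TauT+/+ male 4 and TauT+/+ female 3 had the highest sums of the tested mt-Nd genes. Without TauT+/+ female 3 the estimate for *mt-Nd1* turned to 0.086 and that for *mt-Nd4* was -0.54. *mt-Nd4l* was listed at 0 in every library and *mt-Nd3* had at most 11 counts, and near-identical nuclear copies cover 100% and 99.1% of their transcripts. For *mt-Nd4* and *mt-Nd5* such copies cover 63.6% and 52.4%, so that reads could be lost or split there.

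**Figure D3:**
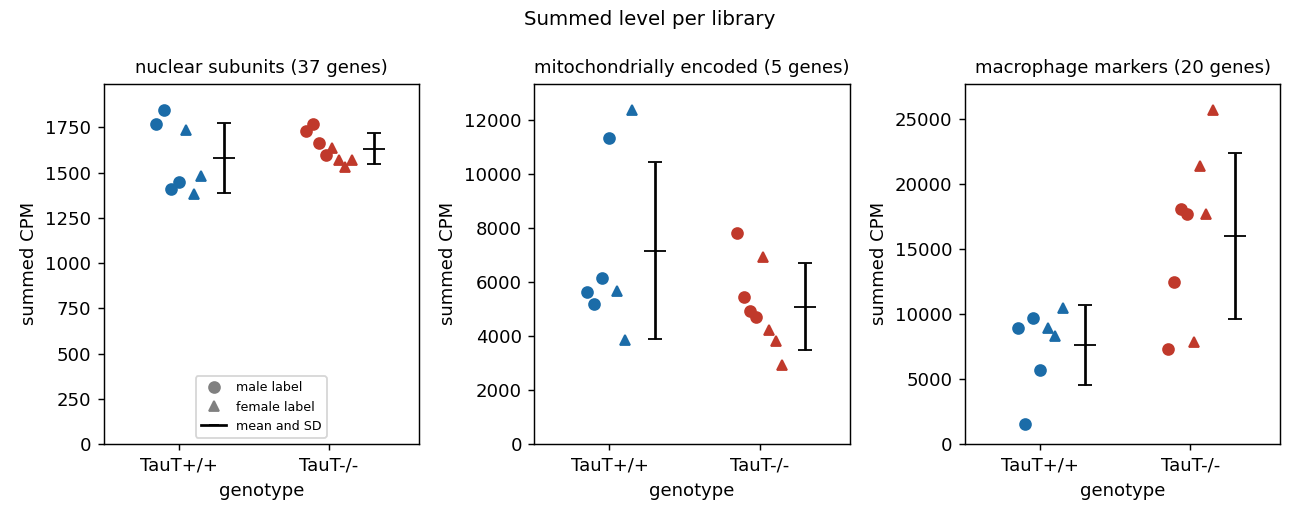
Summed CPM per library of the 37 nuclear subunits, of the 5 tested mitochondrially encoded subunits and of 20 macrophage markers, by genotype, with circles for male and triangles for female labels and bars for mean and SD. The nuclear sums overlap, the mitochondrial sums are highest in 2 TauT+/+ libraries (11314 and 12347 CPM), and the macrophage sums are highest in TauT-/- libraries.

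Set side by side, the nuclear subunits had a median estimate above 0 and the mitochondrially encoded ones a median below 0. The summed CPM of the 5 mitochondrial genes was 3842 to 12347 (median 5663) in TauT+/+ and 2912 to 7803 (median 4817) in TauT-/- libraries. Their log2 ratio to the nuclear sum had a mean of 2.07 ± 0.68 (SD, n = 7) for TauT+/+ and of 1.58 ± 0.41 (SD, n = 8) for TauT-/- MSCs, with overlapping values. Across the 15 libraries, after group means were subtracted, the mean of the nuclear subunits and the mean of the mitochondrial ones had a correlation of -0.17.

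The other genes of the pathway were assembly factors, proteins that build the complex and are not part of it. Of 18 factors, 11 estimates were below and 7 above 0, with a median of -0.052, and 0 passed the edgeR test. At an unadjusted p under 0.05, 4 were lower and 0 higher, where 11.8% of all genes were in each direction. DESeq2 called 2 lower, against 6.5% of all genes: the membrane factors *Tmem186* and *Timmdc1*. *Tmem186* had 11.02 to 13.7 CPM (median 12.01) in TauT+/+ and 7.67 to 11.2 CPM (median 9.85) in TauT-/- libraries, which barely overlapped. Its log2 fold change was -0.32 (SE 0.11; edgeR adjusted p = 0.102; DESeq2 adjusted p = 0.00365). *Timmdc1* had 16 to 21.03 CPM (median 19.1) and 11.7 to 18.9 CPM (median 14.3), with a log2 fold change of -0.33 (SE 0.12; edgeR adjusted p = 0.114; DESeq2 adjusted p = 0.0395). *Ndufab1*, the mitochondrial acyl carrier protein that also sits in complex I, had a log2 fold change of 0.10 (SE 0.14, edgeR adjusted p = 0.670).

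Nuclear genes of complexes II to V had a higher median estimate than those of complex I. Of 39 genes, 36 were above 0 with a median of 0.21, and the medians by complex were 0.20 for complex II, 0.23 for complex III, 0.29 for complex IV and 0.13 for complex V. edgeR called 1 higher, *Sdhd*, a membrane anchor of complex II, where it called 0.564% of all genes higher. DESeq2 called 8 higher, against 5.53% of all genes. At an unadjusted edgeR p under 0.05, 17 were higher and 0 lower, where 11.8% of all genes were in each direction. *Sdhd* had 52.9 to 64.4 CPM (median 56.1) in TauT+/+ and 68.7 to 85.3 CPM (median 75.3) in TauT-/- libraries, which did not overlap, and its log2 fold change was 0.40 (SE 0.069, edgeR adjusted p = 0.0259). With 13 libraries its estimate was 0.39 or 0.40 (edgeR adjusted p = 0.0703 and 0.100), with the macrophage markers as a covariate its adjusted p was 0.193, and leaving out any of 7 libraries ended the call (TauT+/+ male 2 and female 1, 2 and 3, TauT-/- male 1 and 3 and female 3; highest adjusted p = 0.0877). In complex III, *Uqcrc1*, *Uqcrfs1* and *Uqcrb* had estimates of 0.31, 0.34 and 0.25 and passed only with DESeq2, as did *Cox5a*, *Cox7a2* and *Cox7b* of complex IV at 0.41, 0.33 and 0.28 and *Atp5pb* of complex V at 0.26. Whether these complexes differed from complex I was not tested.

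Genes of mitochondrial ribosomal proteins are also encoded in the nucleus. For this list and the next ones, the shares over all genes were 11.8% in each direction at an unadjusted edgeR p under 0.05. With DESeq2 they were 6.5% lower and 5.53% higher. Of 77 ribosomal protein genes tested, 58 were above 0, with a median of 0.092, edgeR called 0 (2 lower and 16 higher at an unadjusted p under 0.05), and DESeq2 called 9 higher and 1 lower. The 9 were *Mrpl12*, *Mrpl16*, *Mrpl19*, *Mrpl43*, *Mrpl50*, *Mrpl52*, *Mrps18c*, *Mrps23* and *Mrps30*, at 0.28 to 0.40, and the other was *Mrps6* at -1.88 (edgeR adjusted p = 0.0594, DESeq2 adjusted p = 0.00217). The authors measured mitochondrial mass with a dye and reported it as lower in TauT-/- MSCs, and RNA levels do not measure it. Of 12 other genes of mitochondrial proteins, such as *Cs*, *Tomm20* and the *Vdac* genes, 11 were above 0 with a median of 0.17. With edgeR or DESeq2, 0 of these genes passed, with 5 higher at an unadjusted edgeR p under 0.05. *Vdac2*, an outer membrane channel, had the smallest p of them, with 0.31 (SE 0.11, edgeR adjusted p = 0.110). Among 12 regulators of mitochondrial biogenesis the median was 0.28. edgeR called 0 of them, with 6 higher at an unadjusted p under 0.05, and DESeq2 called 4 higher, *Yy1*, *Esrra*, *Pprc1* and *Ppargc1b*. *Ppargc1b* was low, at 0.617 to 1.05 CPM in TauT+/+ and 0.69 to 3.34 CPM in TauT-/- libraries. *Yy1*, a transcription factor that acts on many respiratory genes, had 80.4 to 110.1 CPM (median 92.0) in TauT+/+ and 101.4 to 155.6 CPM (median 122.5) in TauT-/- libraries. The log2 fold changes were 0.41 for *Yy1*, 0.42 for *Esrra*, 0.69 for *Pprc1* and 0.94 for *Ppargc1b* (edgeR adjusted p = 0.0728, 0.0807, 0.0807 and 0.112; DESeq2 adjusted p = 0.0146, 0.0300, 0.0294 and 0.0417).

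Most macrophage markers had higher values in TauT-/- libraries. Over all genes, edgeR called 0.591% lower and 0.564% higher, and DESeq2 called 6.5% lower and 5.53% higher. At an unadjusted edgeR p under 0.05, 11.8% were in each direction. Of 20 macrophage genes, 19 had estimates above 0 with a median of 0.97, edgeR called *Ctss* and *Cd68* higher, DESeq2 called these and *Cd14*, *Itgam*, *Fcer1g*, *C1qa*, *C1qb*, *Laptm5* and *Cd53*, and the summed level was 1575 to 10509 CPM in TauT+/+ and 7294 to 25680 CPM in TauT-/- libraries. The stromal list had a median of -0.54 and the adipocyte list one of -1.31, with 0 genes called by edgeR in each (4 lower and 1 higher, and 4 lower, at an unadjusted p under 0.05) and 2 (*Pdgfra* and *Vcam1*) and 4 (*Adipoq*, *Cfd*, *Pparg* and *Cidec*) called lower by DESeq2. *Cfd* and *Cidec* were near 0, with TauT+/+ medians of 0.346 and 0.337 CPM. *Adipoq* had a TauT+/+ median of 4.43 CPM, and its highest value, 111.3 CPM, was in TauT+/+ male 2. Medians of the osteoblast, endothelial and erythroid lists were -0.39, 0.12 and -1.01, also with 0 genes called by edgeR, and with *Spp1* and *Kdr* called higher and *Epor* called lower by DESeq2. Summed endothelial markers were at 2.93 to 13.04 CPM in TauT+/+ and 9.81 to 45.2 CPM in TauT-/- libraries, and summed erythroid markers were at 4.64 CPM or less. *Kdr* alone was at 0.56 to 5.17 CPM in TauT+/+ and 4.64 to 35.8 CPM in TauT-/- libraries. The median of *Pecam1* was 0.253 and 0.148 CPM. Of the 7 endothelial genes tested, 3 had estimates below and 4 above 0. With the mean of the macrophage markers as a covariate, the median log2 fold change of the complex I subunits was 0.12, 5 estimates were below 0 and 0 subunits were called. That fit called only 0 genes lower and 2 higher of all 18263. The mean of the subunits and that of the macrophage markers had a correlation of -0.40 within groups. The part of other cells in these values was not tested further.

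Levels of the subunits differed far more from gene to gene than between genotypes. Per kilobase of transcript, with the canonical transcript of GENCODE M39, *Ndufa4*, *Ndufa7* and *Ndufa2* were highest at means of 107.2, 99.0 and 95.3 CPM per kb over all libraries. These 3 did not differ beyond their spread, which for *Ndufa4* was 118 ± 36.3 (SD, n = 7) and for *Ndufa7* 98.8 ± 16.3 CPM per kb in TauT+/+ libraries. *Ndufb4* was low at 3.97 CPM per kb. The order of *Ndufb1*, *Ndufb2*, *Ndufc1* and *Ndufs4* depends on which transcript is taken, since *Ndufb2* had 1.91 CPM per kb with its canonical and 18.4 with its shortest transcript of the same coding length.

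The genes are scattered over 16 chromosomes of GRCm39, with at most 5 on a single chromosome. Among the core subunits, *Ndufs1* lies on chromosome 1 from 63182058 to 63216236 with 19 exons and *Ndufs3* on chromosome 2 from 90724969 to 90735284 with 7 exons. *Ndufv1* and *Ndufs8* lie close together on chromosome 19, from 4057384 to 4062814 and from 3958862 to 3962948. *Ndufs6* lies on chromosome 13 from 73464968 to 73476661 with 4 exons, and *Ndufa4* on chromosome 6 from 11897630 to 11907496 with 4 exons.

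Many subunits share a start region with another gene. Of the 37, 16 (43.2%) had a protein-coding gene on the other strand that starts within 1000 bases, against 13.9% of 14159 tested protein-coding genes. For 10 of the 16, the starts overlap, which includes *Ndufs6* with the ribosomal protein gene *Mrpl36*, whose starts overlap by 56 bases. The log2 fold change of *Mrpl36* was -0.056 (edgeR adjusted p = 0.818), and that of *Phf14*, which starts 312 bases from *Ndufa4*, was -0.25 (edgeR adjusted p = 0.273). Of the 15 partners tested, 8 had estimates below and 7 above 0 and 0 passed the edgeR test. At an unadjusted p under 0.05 there were 3, where 11.8% of all genes were in each direction. DESeq2 called the partners of *Ndufa11* and *Ndufa5*, *Vmac* and *Asb15*, lower, against 6.5% of all genes. The authors counted reads by strand, and where a library kit does not mark strand, reads of such overlapping genes cannot be told apart.

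Promoter letters were read from RefSeq sequences of GRCm38.p6, which held 33 of the 37 subunits, over 250 bases before to 50 bases after the start and on both strands. The letters GCGCATG, the core of sites of the respiratory factor NRF1, were found in 5 of 33 (15.2%, against 4.41% of all 27025 genes), AAGATGG, the core of YY1 sites, in 7 (21.2% against 7.28%), CCGGAAG, of ETS factors such as GABP, in 4 (12.1% against 9.93%) and GGGCGG, of the SP family, in 14 (42.4% against 38.2%). *Ndufs6* and *Ndufs7* were among those with AAGATGG. The shares over all 27025 genes were not limited to genes tested here, whereas all the subunits were tested, so the sets are unlike. Upstream stretches of 2 genes are printed because they belong to the subunit with the lowest estimate and to one of those with the highest, and no other gene overlaps them in that annotation. The stretch before *Ndufa4* is chr6:11907451-11907700 and that before *Ndufb8* is chr19:44555443-44555692, both on the minus strand. Capitals mark the SP letters on either strand, and matches of *Ndufb8* to the NRF1 and YY1 letters fall after the start, outside the printed stretch.
Ndufa4 upstream: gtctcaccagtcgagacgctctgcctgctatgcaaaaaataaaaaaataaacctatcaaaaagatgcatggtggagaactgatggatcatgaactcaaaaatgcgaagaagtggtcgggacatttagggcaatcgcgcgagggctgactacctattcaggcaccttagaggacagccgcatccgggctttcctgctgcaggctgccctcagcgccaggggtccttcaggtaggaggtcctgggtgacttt
Ndufb8 upstream: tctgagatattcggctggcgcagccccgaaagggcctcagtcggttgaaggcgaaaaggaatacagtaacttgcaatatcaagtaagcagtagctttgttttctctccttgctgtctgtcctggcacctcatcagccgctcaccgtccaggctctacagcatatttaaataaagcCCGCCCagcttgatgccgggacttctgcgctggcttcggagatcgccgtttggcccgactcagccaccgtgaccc

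The *Ndufa4* stretch holds none of the searched letters and that of *Ndufb8* holds the SP letters once. A match describes the sequence and was not tested for any bearing on the levels.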

How the data were processed

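Bone marrow MSC cultures, 7 TauT+/+ and 8 TauT-/- libraries, were sequenced from oligo-dT primed full-length cDNA. The deposited table holds raw counts per gene; per the labels and the study's methods the authors trimmed reads with fastp 0.23.1, aligned them with STAR 2.7.9a to GRCm39 and counted them with featureCounts of Subread 2.0.1 using a strand setting. Whether the kit marks strand is not given in the sources used here. Genes were filtered by group with filterByExpr, scaled by TMM and tested with edgeR 4.0.16 (quasi-likelihood, labelled sex and genotype as terms) in R 4.3.3, with Benjamini-Hochberg adjustment over all genes and a threshold of 0.05. DESeq2 1.42.0 and limma 3.58.1 (voom with sample quality weights) were alternatives. CPM used TMM-scaled library sizes. Near-identical copies were sought with BLAST+ 2.17.0. Scripts were tested on simulated data. The members and gene lists were chosen with earlier results of these data known.

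Named genes were the nuclear core subunits, the 5 subunits with the largest and the 5 with the smallest log2 fold change, any called by edgeR or DESeq2, *Ndufa4*, the 3 with the highest level per length, and in other lists the genes called by either tool or else the one with the smallest p. The mt-Nd genes, *Ndufab1*, *Slc6a6* and the 5 genes most like the subunits' mean were always named. *Vmac*, *Asb15*, *Phf14* and *Mrpl36* were singled out after their values were seen. The values of 1 subunit are not reported here, though it is included in the counts and medians.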

Additional observations from a re-analysis of the deposited data

Results flagged for a closer look

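In groups of 4 libraries, 8 of 129 sets of values had a library set apart from the other 3 by more of the group's range than the 95% limit allows; chance alone flags about 1 in 20, here 6.45. The share of the range taken by the gap was 0.856 for *Ndufa9* (TauT-/- female 4, 50.1 CPM against 61.4 or more) and 0.898 for *Ndufs8* (TauT-/- female 4, 20.5 CPM against 36.8 or more). It was 0.898 for *Ndufb10* and 0.853 for *Ndufv3*, both low in TauT+/+ male 3 at 36.6 and 45.7 CPM. It was 0.939 for *Ndufb4*, high in TauT+/+ male 2 at 4.63 CPM.

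In the mitochondrial genome, the share was 0.952 for *mt-Nd1* in TauT-/- male 1 at 3150 CPM and 0.853 in TauT-/- female 1 at 2816 CPM, and 0.898 for *mt-Nd6* in TauT-/- female 1 at 23.2 CPM. These 2 libraries are one of the near-identical pairs.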

How the results depend on the processing

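Limits are the labelled sexes, which differ in depth, the near-identical library pairs and the few libraries per group. The intervals, not the missed thresholds, bound the change, but only under the main fit and the fits with 13 libraries. No intervals were taken in the other alternatives. Over all alternatives, estimates of subunits reached 0.43 for *Ndufb8* and -0.41 for *Ndufa4*. edgeR called 0 subunits lower in every alternative, some of which called few or no genes of the whole table. Called higher was 1 with DESeq2 and 1 with voom (*Ndufs6*). DESeq2 called 1 mitochondrially encoded gene and 2 assembly factors, and leaving out each library in turn gave 0 to 1 assembly factors (1, *Tmem186*, without TauT+/+ male 3).

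The number of estimates below 0, 9 of 37, was 15 with upper-quartile scaling, which put the median of all genes at -0.029, 16 with at least 10 counts in every library, 5 with the macrophage covariate and 14 with a filter from the design matrix, chosen after seeing the data. Leaving out each library gave 7 to 18 (18 without TauT+/+ male 3 or male 4, 16 without TauT-/- male 2 or male 3, 14 without TauT+/+ female 2).

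The log2 fold change of Ndufa7 was -0.013 with upper-quartile scaling, -0.023 with at least 10 counts, -0.032 without the 3 libraries of mismatched sex label, -0.0096 in male-labelled libraries alone and -0.00777 with the added filter, and leaving out each library gave -0.057 to 0.064. The log2 fold change of Ndufv2 was -0.0034 with at least 10 counts and -0.011 in male-labelled libraries alone, and -0.018 to 0.063 leaving out each library. With the macrophage covariate *Ndufs3* and *Ndufa3* turned to 0.097 and 0.017. *mt-Nd1* ran from -0.39 to 0.086 leaving out each library. The cause was not tested.

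The sources do not say that a replicate number marks a shared batch. Deviations of same-numbered TauT+/+ and TauT-/- libraries had correlations of 0.19 to 0.61 in the 4 male-labelled pairs, where 8 of 8 libraries correlated best with their own number, a hint from the data of pairing there. In the 3 female-labelled pairs they were 0.26, 0.063 and -0.048, with 3 of 6 libraries best with their own number, so the pairing did not hold for every pair. A replicate block gave 0 subunits called, a median of 0.072 and 8 estimates below 0.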
